A study of Mus musculus with 4 samples.

Results

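The amino acid deprivation response genes examined here were 36 listed mouse genes of the ATF4 pathway, from the sensor kinase to the enzymes, transporters and tRNA synthetases that ATF4 is known to switch on. Members were chosen by name, with earlier results of these data known. They had to reach 20 summed unique molecular identifiers (UMIs, each marking 1 captured RNA molecule) over the kept nuclei. All 36 listed genes passed this limit, among 18358 of 32285 mouse genes that did. For description the genes were placed into 5 roles, with 7 sensors and transcription factors, 7 feedback and stress effectors, 9 synthesis enzymes, 5 transporters and 8 tRNA synthetases.

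When a cell runs short of an amino acid, uncharged tRNA activates the kinase GCN2 (Eif2ak4), which phosphorylates the translation factor eIF2. Most protein synthesis then slows, while translation of Atf4 mRNA goes up, and the ATF4 protein raises transcription of genes for amino acid synthesis, amino acid uptake and tRNA charging. Since ATF4 is controlled largely through translation, its mRNA level and the levels of its targets need not move together. The liver is exposed to dietary amino acids through the portal vein, and hepatocytes near the portal vein (periportal) and near the central vein (pericentral) are known to differ in amino acid metabolism.

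RNA was measured in nuclei from frozen livers of male Bl/6 mice, with 1 library for each of 4 groups. Mice were given chow diet (CD) or low-protein diet (LPD) from 1 week before a hydrodynamic tail vein injection until 2 weeks after it. By their labels, the oncogene groups received human c-MET and the N-terminally truncated β-catenin on Sleeping Beauty transposon plasmids (SB-HTVI), and the controls received the vector. The injection reaches only some hepatocytes, and how many mice stand behind a library is not given in the sources used here. Below, values for the 4 libraries are listed with the CD libraries first and the LPD libraries after them, each time the library labelled control before the one labelled oncogene.

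The human transgenes gave 100, 0, 0 and 6 UMIs in the 4 libraries, so the transgene UMIs of the CD libraries went against their labels. After filtering, the library labelled CD oncogene also kept more nuclei (12552) than the library labelled CD control (10397), while the larger CD number in the study's text is that of the vector group. Libraries are therefore named by their labels throughout, and any direction between the CD libraries turns around if their labels were exchanged. Hepatocyte nuclei numbered 6652, 8138, 6622 and 5826, and the median nucleus held 5668, 4740, 2487 and 2568 UMIs. Their median mitochondrial share of UMIs was 1.34%, 0.551%, 0.0698% and 0.0812%. Depth and mitochondrial share thus separated the diets, and with 1 library per group neither these nor differences between single mice can be told apart from diet. Between 16 and 35 barcodes were shared by any pair of libraries. Levels are given as CPM: a gene's UMIs in all hepatocyte nuclei of 1 library, per 1000000 mouse UMIs there. All intervals are exact 95% intervals that cover counting error only, and no difference in level between libraries has a replicate check or a test.

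ATF4 acts together with C/EBP proteins at a composite DNA element, whose core is commonly written TGATGNAA. This motif was searched on both strands (TTNCATCA on the other strand, with no other motif searched) from 250 bases before to 50 bases after the RefSeq start of each gene (GRCm38.p6). RefSeq promoters were matched for 31 of the 36 genes, leaving Cth, Nars, Wars, Eif4ebp1 and Slc7a5. The motif was found in 13 of these 31 promoters (41.9%), against 4.51% of 27025 genes in the table. Windows of 6 genes are shown because these genes stand for 4 of the 5 roles and return below, with the motif in capitals. Each window holds 30 bases and is printed along the strand of the gene.
Atf3: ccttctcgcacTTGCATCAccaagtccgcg
Nupr1: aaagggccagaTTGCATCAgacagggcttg
Chac1: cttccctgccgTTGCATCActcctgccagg
Herpud1: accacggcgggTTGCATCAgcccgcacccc
Asns: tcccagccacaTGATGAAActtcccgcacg
Slc7a11: cTGATGCAAacctggagaatTTGCATCAtc

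The windows lie at chr1:191183425-191183454 on the minus strand (Atf3), chr7:126625562-126625591 on the minus strand (Nupr1), chr2:119351038-119351067 on the plus strand (Chac1), chr8:94386306-94386335 on the plus strand (Herpud1), chr6:7693214-7693243 on the minus strand (Asns) and chr3:50443651-50443680 on the minus strand (Slc7a11). By the GENCODE annotation of GRCm38, those of Chac1, Herpud1 and Slc7a11 lie outside the gene, while those of Atf3, Nupr1 and Asns lie within the span of a gene whose annotated start is further upstream. The first base of the motif stood 193 bases before the start of Chac1, 112 before that of Herpud1 and 110 before those of Atf3 and Nupr1. In Asns it stood 23 bases before the start, and Slc7a11 held 2 copies on opposite strands, 66 and 47 bases before it. Vldlr, Pycr1, Aars and Gars also held the motif before the start, and Trib3, Iars and Yars held it after the start. Such a match is a description of the letters and shows no binding.

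Whether a low-protein diet goes with higher levels of these genes was examined first. A gene was called higher in LPD when its CPM, after 1 CPM was added, was at least 1.5-fold higher in each of the 4 comparisons of 1 LPD library with 1 CD library. This call uses both libraries of each diet, so it does not depend on the injection labels. Of the 36 genes, 20 (55.6%) were higher in LPD and 0 were lower, whereas 7.53% of 16715 genes were higher and 4.53% were lower. The 16715 genes include many of low level, for which the added CPM makes the limit harder to reach. No share over genes of matched level was taken. Over the 36 genes the mean log2 ratio had a median of 1.08, and over all genes one of 0.09. In 28 of the 36 genes all 4 ratios lay above 0, against 37.4% of all genes. By role, 4 of 5 transporters, 5 of 7 effectors, 6 of 9 synthesis enzymes, 3 of 8 tRNA synthetases and 2 of 7 sensors and transcription factors were higher, with median log2 ratios of 1.76, 1.5, 1.22, 0.91 and 0.68.

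**Figure D1:**
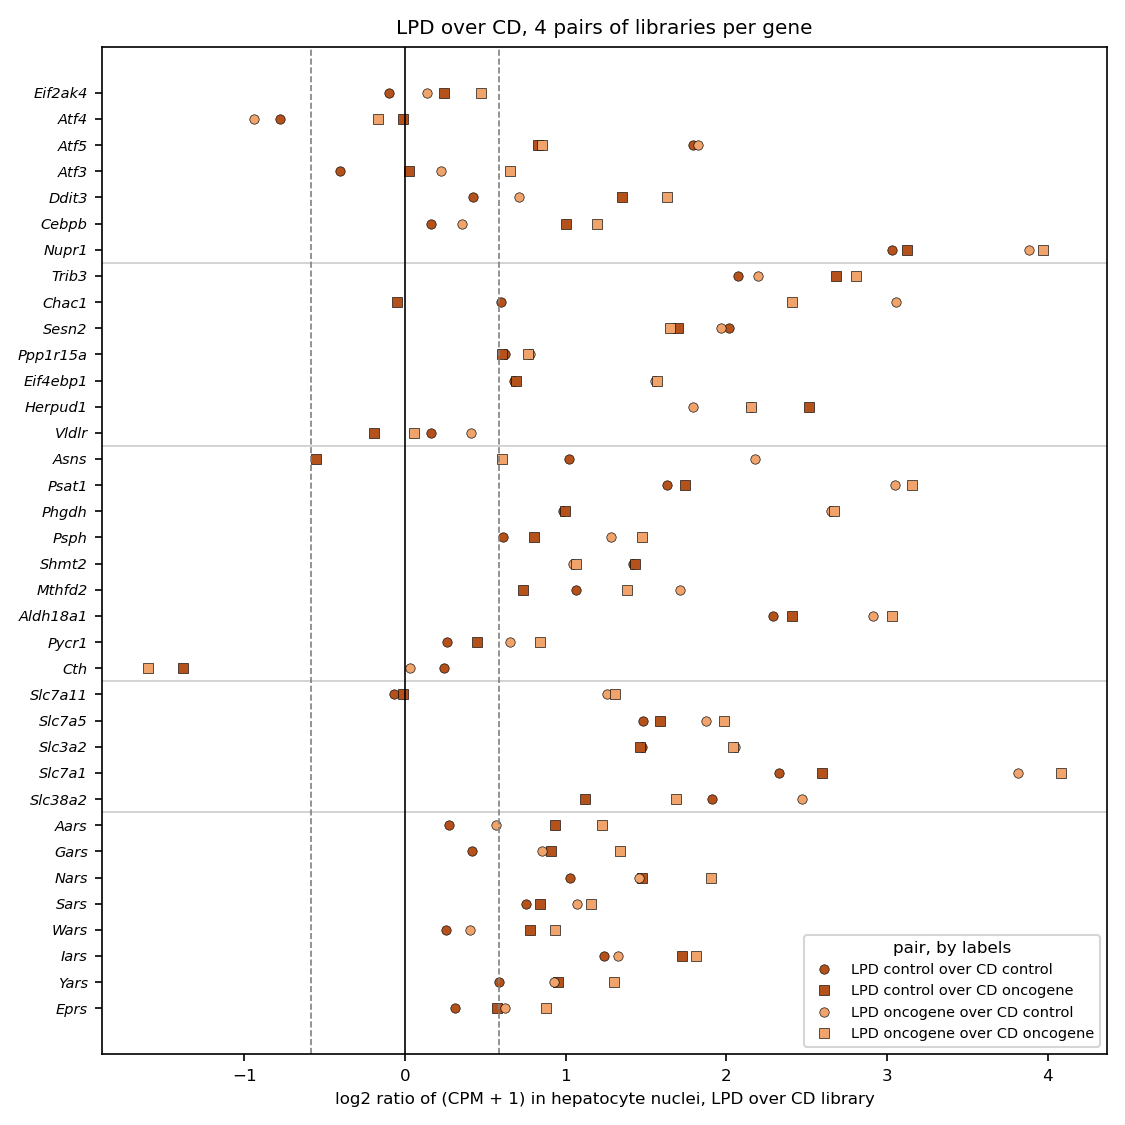
Each point is the log2 ratio of (CPM + 1) in hepatocyte nuclei between 1 LPD and 1 CD library (horizontal axis), for the 36 genes in rows grouped by role. Dashed lines mark the 1.5-fold limit, and 20 genes have all 4 points to the right of the upper one, none all 4 to the left of the lower one.

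Markers of other cell classes were checked in the same hepatocyte nuclei, since CPM can be moved by RNA of other cells. The 107 markers of other classes summed to 1274, 1046, 551 and 918 CPM, of which the 8 Kupffer cell markers made 757, 583, 209 and 377 CPM. Of the 107 markers 106 had at least 1 UMI. Among them was Xbp1, on the plasma cell list and also an ER stress gene below, at 119, 67.9, 96.0 and 123 CPM. A filter on these markers, without the plasma cell and proliferating lists, removed nuclei with 2 or more of their UMIs. Deeper nuclei, as in the CD libraries, reach such a limit more easily. Only 706, 1331, 4505 and 2627 nuclei were left, and 19 genes were higher in LPD, 17 of them among the 20. With at most 1% mitochondrial UMIs the count was 19, and with every nucleus thinned to 1000 UMIs it was 18. Scaling by TMM factors shifted all genes by -0.15 (log2) for LPD over CD and left 16 of the 20, without Ppp1r15a, Eif4ebp1, Psph and Mthfd2.

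Of the upstream genes, neither the sensor nor Atf4 mRNA was higher in LPD. Eif2ak4 (GCN2) stood at 42.5, 33.3, 39.6 and 46.7 CPM, so that the diets overlapped. Atf4 stood at 126, 73.5, 72.8 and 65.2 CPM, with the library labelled CD control high and the other 3 close together. The LPD over CD ratio of Atf4 ran from 0.518 (0.486 to 0.552) to 0.991 (0.931 to 1.05), and its mean log2 ratio of -0.48 was below 0. Without the library labelled CD oncogene, Atf4 was the only 1 of the 36 genes called lower in LPD, and without the library labelled CD control Cth was.

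Atf5 and Nupr1 were the transcription factors higher in LPD. Atf5, whose translation is controlled like that of Atf4 and which activates stress genes, stood at 39.7, 78.6, 140 and 143 CPM. Nupr1, a small stress-induced chromatin protein, stood at 0.313, 0.232, 9.74 and 18.3 CPM. Both showed no overlap between the diets, and Nupr1 rested on 14 and 12 UMIs in the CD libraries. The LPD over CD ratio of Nupr1 ran from 31.2 (18.1 to 58.1) to 79.1 (44.7 to 155), and that of Atf5 from 1.79 (1.70 to 1.87) to 3.60 (3.38 to 3.82). Ddit3 (CHOP), a pro-apoptotic factor induced by ATF4, stood at 17.4, 8.72, 23.8 and 29.1 CPM and was above both CD libraries in both LPD libraries. Its smallest ratio, 1.36 (1.21 to 1.53), missed the limit. Cebpb, a partner of ATF4 in liver, stood at 103, 56.8, 115 and 131 CPM, with a smallest ratio of 1.12 (1.06 to 1.18). Atf3, an ATF4 target that represses transcription, was low everywhere, at 1.36, 0.754, 0.785 and 1.76 CPM, and overlapped between the diets.

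Among the feedback and stress effectors, Trib3, a pseudokinase that holds ATF4 back, stood at 3.26, 1.80, 17.0 and 18.6 CPM. Sesn2, a leucine sensor that restrains the growth kinase mTORC1, stood at 4.42, 5.74, 20.9 and 20.2 CPM. For both genes the LPD libraries lay close to each other and far above the CD libraries, with ratios from 5.20 (4.27 to 6.37) to 10.3 (8.18 to 13.2) for Trib3 and from 3.51 (3.002 to 4.11) to 4.74 (3.99 to 5.65) for Sesn2. Herpud1, a component of the degradation machinery of the endoplasmic reticulum (ER), stood at 139, 108, 624 and 485 CPM, with ratios from 3.49 (3.37 to 3.60) to 5.77 (5.59 to 5.96). Eif4ebp1, which blocks cap-dependent translation, stood at 8.21, 8.16, 13.8 and 26.1 CPM. Ppp1r15a (GADD34), which brings phosphatase to eIF2 and ends the response, stood at 4.44, 4.505, 7.38 and 8.35 CPM. These last 2 genes were higher by less, with smallest ratios of 1.68 (1.42 to 1.97) for Eif4ebp1 and 1.64 (1.32 to 2.03) for Ppp1r15a. Chac1, which degrades glutathione, stood at 0.491, 1.33, 1.26 and 11.4 CPM, so that only the library labelled LPD oncogene was high. Vldlr, a lipoprotein receptor, stood at 0.781, 1.28, 0.994 and 1.36 CPM and overlapped between the diets.

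The 3 enzymes of serine synthesis from glucose intermediates were all higher in LPD. Phgdh, the first of them, stood at 0.0893, 0.0773, 1.15 and 5.85 CPM, Psat1, the next, at 0.268, 0.174, 2.93 and 9.49 CPM, and Psph, the last, at 6.90, 5.92, 11.04 and 18.2 CPM. Each had both LPD libraries above both CD libraries, with the library labelled LPD oncogene the highest. The Psat1 ratios ran from 10.9 (5.80 to 22.4) to 54.5 (28.0 to 121), and those of Phgdh, with 4 UMIs in either CD library, from 12.9 (4.38 to 51.5) to 75.7 (28.7 to 283). Psph ratios were smaller, from 1.601 (1.34 to 1.91) to 3.08 (2.63 to 3.62).

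Mitochondrial one-carbon enzymes, which take serine further, were higher as well. Shmt2 stood at 37.2, 36.8, 101 and 78.0 CPM, with ratios from 2.096 (1.95 to 2.25) to 2.75 (2.58 to 2.93). Mthfd2 stood at 10.6, 13.6, 23.2 and 36.9 CPM, with ratios from 1.71 (1.52 to 1.93) to 3.49 (3.10 to 3.94). Aldh18a1, which opens proline synthesis, stood at 0.737, 0.599, 7.48 and 12.1 CPM, with ratios from 10.2 (6.92 to 15.3) to 20.2 (13.8 to 30.5). Pycr1, which closes the same pathway, was near the lower end of the data at 0.357, 0.193, 0.628 and 1.14 CPM, and was not called.

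Asns and Cth did not separate the diets. Asns (asparagine synthetase), a classic ATF4 target, stood at 0.625, 3.85, 2.30 and 6.36 CPM, so that the library labelled CD oncogene lay above the library labelled LPD control. Its ratio to the library labelled CD control was 3.68 (2.24 to 6.15) and 10.2 (6.68 to 16.0) in the LPD libraries, and its ratio to the library labelled CD oncogene was 0.599 (0.422 to 0.833) and 1.65 (1.30 to 2.09). Cth, which makes cysteine from cystathionine, stood at 145, 452, 173 and 148 CPM, and only the library labelled CD oncogene stood apart.

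Of the 5 transporters, 4 were higher in LPD. Slc7a1, the carrier of arginine and lysine, stood at 0.670, 0.387, 7.38 and 22.6 CPM, with ratios from 11.02 (7.39 to 16.9) to 58.3 (37.3 to 96.5). Slc7a5, the exchanger of leucine and other large neutral amino acids, stood at 0.558, 0.445, 3.35 and 4.71 CPM. Slc3a2, its heavy chain partner, stood at 7.41, 7.48, 22.4 and 34.0 CPM. For both chains the CD libraries were nearly level and the LPD libraries clearly above them, with ratios from 6.00 (3.73 to 9.95) to 10.6 (6.61 to 17.6) for Slc7a5 and from 2.99 (2.60 to 3.44) to 4.58 (4.001 to 5.26) for Slc3a2. Slc38a2, a sodium-coupled carrier of alanine and glutamine, stood at 124, 214, 467 and 691 CPM, with ratios from 2.18 (2.12 to 2.25) to 5.59 (5.41 to 5.77). Slc7a11, the cystine carrier, gave 7, 6, 2 and 31 UMIs, and 10 of the 31 UMIs came from a single nucleus.

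Cytosolic tRNA synthetases, which load tRNA with amino acids, had a smaller median ratio than the transporters, and 3 of the 8 were called. Nars stood at 23.3, 16.8, 48.7 and 65.8 CPM, Iars at 30.4, 21.4, 73.1 and 77.8 CPM, and Sars at 24.5, 22.97, 41.9 and 52.5 CPM. Their smallest ratios were 2.09 (1.91 to 2.28), 2.40 (2.23 to 2.59) and 1.71 (1.56 to 1.88). Yars, at 57.3, 44.2, 86.4 and 110 CPM, lay just inside the limit by its smallest ratio without the added CPM, 1.51 (1.41 to 1.603), and just outside with it. Aars stood at 80.02, 50.3, 96.9 and 119 CPM, Gars at 18.3, 12.7, 24.8 and 33.7 CPM, Wars at 10.9, 7.29, 13.2 and 14.8 CPM and Eprs at 98.9, 82.5, 123 and 153 CPM. In all 8 genes both LPD libraries lay above both CD libraries, and the library labelled CD oncogene was the lowest.

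**Figure D2:**
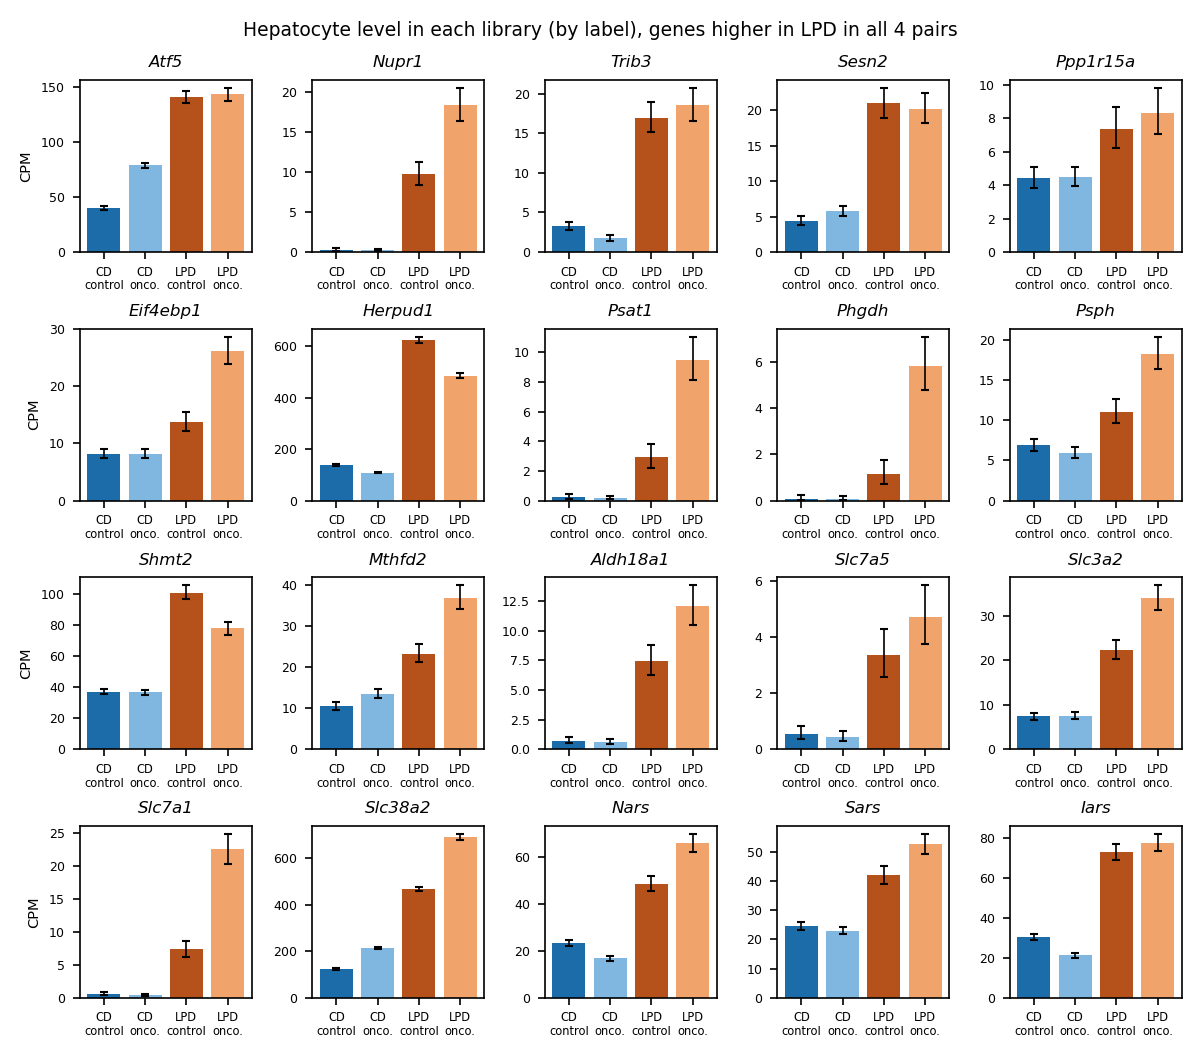
Bars give the level in CPM in the hepatocyte nuclei of each library by its label, for the 20 genes called higher in LPD, with exact 95% counting intervals and a separate vertical axis from 0 for each gene. Both LPD bars stand above both CD bars in every panel, from Ppp1r15a (4.44 and 4.505 against 7.38 and 8.35 CPM) to Nupr1 (0.313 and 0.232 against 9.74 and 18.3 CPM).

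The promoter motif was also counted by diet call. Within the searched stretch around the start it was present in 4 of the 17 matched genes higher in LPD (23.5%) and in 9 of the 14 other matched genes (64.3%). Copies elsewhere in or near these genes were not searched, so the counts do not show which genes lack the motif. Nupr1 and Herpud1 of the windows printed above were higher in LPD, whereas Atf3, Chac1, Asns and Slc7a11 were not called.

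Hepatocyte nuclei of each library were then divided by a zone score into 3 gates of equal size. The score was the mean of 12 pericentral markers minus that of 12 periportal markers, each log-normalized and standardized within the library. Pericentral and periportal gates were compared with edgeR, each library as a block. Genes used for the gates were not members. Marker levels of the gates differed between libraries. Glul, the pericentral glutamine synthetase, stood at 911, 152, 279 and 428 CPM in the pericentral gates. In the periportal gates it stood at 17.2, 4.41, 14.0 and 21.6 CPM. The study reports the pericentral gate markers Glul, Cyp2e1, Cyp1a2 and Lgr5 as high in oncogene-expressing hepatocytes. It reports the periportal ones Pck1, Cyp2f2 and Hal as low there. Hepatocyte nuclei with a transgene UMI numbered 79, 0, 0 and 4. Such nuclei can enter the pericentral gate whatever their zone, and the part of the transgenes in the zone calls was not tested. Of 34 members tested, 3 (8.82%) were higher in pericentral nuclei and 9 (26.5%) in periportal nuclei, by edgeR's quasi-likelihood test with Benjamini-Hochberg adjustment over 13311 genes. Among all genes 11.5% were pericentral and 12% periportal. The median log2 ratio of pericentral over periportal was -0.15 over the members and 8.1e-05 over all genes, and 25 of the 34 were below 0. Gates of a library share its nuclei and RNA, so these p-values measure how alike the 4 libraries were, and free RNA is shared by all gates. Without the library term only Vldlr stayed called, and 0 members were periportal.

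Periportal genes included both transporters and enzymes. Slc7a1 had the lowest log2 ratio, -1.73 ± 0.24 (SE derived from the F statistic of the fit, 4 libraries, edgeR adjusted p = 1.9e-04). Its CPM in pericentral against periportal gates was 0.617 against 0.609, 0.241 against 0.622, 2.39 against 12.1 and 9.34 against 31.3 in the 4 libraries. The CPM of Slc7a1 thus differed most between gates in the LPD libraries, where its level was high, while the difference of that zone ratio between the diets was -1.28 ± 0.56 (edgeR adjusted p = 0.32). Psat1 (-1.44 ± 0.30, adjusted p = 0.0040) and Aldh18a1 (-1.15 ± 0.21, adjusted p = 0.0015) were also lower in pericentral nuclei. Aldh18a1 stood at 3.94 against 10.6 CPM and 7.41 against 15.5 CPM in the LPD libraries. In the CD libraries it stood at 0.740 against 0.811 CPM (12 against 12 UMIs) and 0.338 against 1.02 CPM (7 against 18 UMIs). Psat1 stood at 0.844 against 4.35 CPM and 4.89 against 13.04 CPM in the LPD libraries, and at 0.123 against 0.203 CPM and, in the other direction, 0.193 against 0.113 CPM in the CD libraries, on 2 to 4 UMIs a gate. The call on Psat1 was lost without the library labelled LPD oncogene.

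The other 6 periportal members had smaller zone differences. Herpud1 was lower in pericentral nuclei by -0.49 ± 0.06 (edgeR adjusted p = 9.6e-05), Slc38a2 by -0.38 ± 0.06 (adjusted p = 2.7e-04) and Atf5 by -0.35 ± 0.07 (adjusted p = 0.0021), each in 4 of 4 libraries. Cth (-0.40 ± 0.10, adjusted p = 0.014), Nars (-0.23 ± 0.06, adjusted p = 0.019) and Eprs (-0.16 ± 0.04, adjusted p = 0.019) were also below 0 in 4 of 4 libraries. The call on Cth was lost when either CD library was left out. That on Nars was lost without either LPD library and held in 9 of 14 alternatives, and that on Eprs was lost without either CD library or the library labelled LPD oncogene and held in 8 of 14. Both were lost under DESeq2.

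The pericentral members were Vldlr, Aars and Cebpb. Vldlr had a log2 ratio of 4.02 ± 0.43 (edgeR adjusted p = 2.7e-05) on few UMIs, with 33, 62, 16 and 18 UMIs in the pericentral gates and 1, 1, 2 and 2 in the periportal gates. Aars, the alanyl-tRNA synthetase, was the 1 tRNA synthetase on this side, at 0.62 ± 0.09 (adjusted p = 2.4e-04). It stood at 114 against 55.4 CPM, 63.1 against 40.1 CPM, 123 against 76.6 CPM and 130 against 110 CPM. Cebpb was higher by 0.33 ± 0.07 (adjusted p = 0.0062), again in 4 of 4 libraries. Atf4 and Eif2ak4 gave 0.05 ± 0.06 and -0.01 ± 0.08, and neither was called (adjusted p = 0.67 and 0.96, edgeR).

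**Figure D3:**
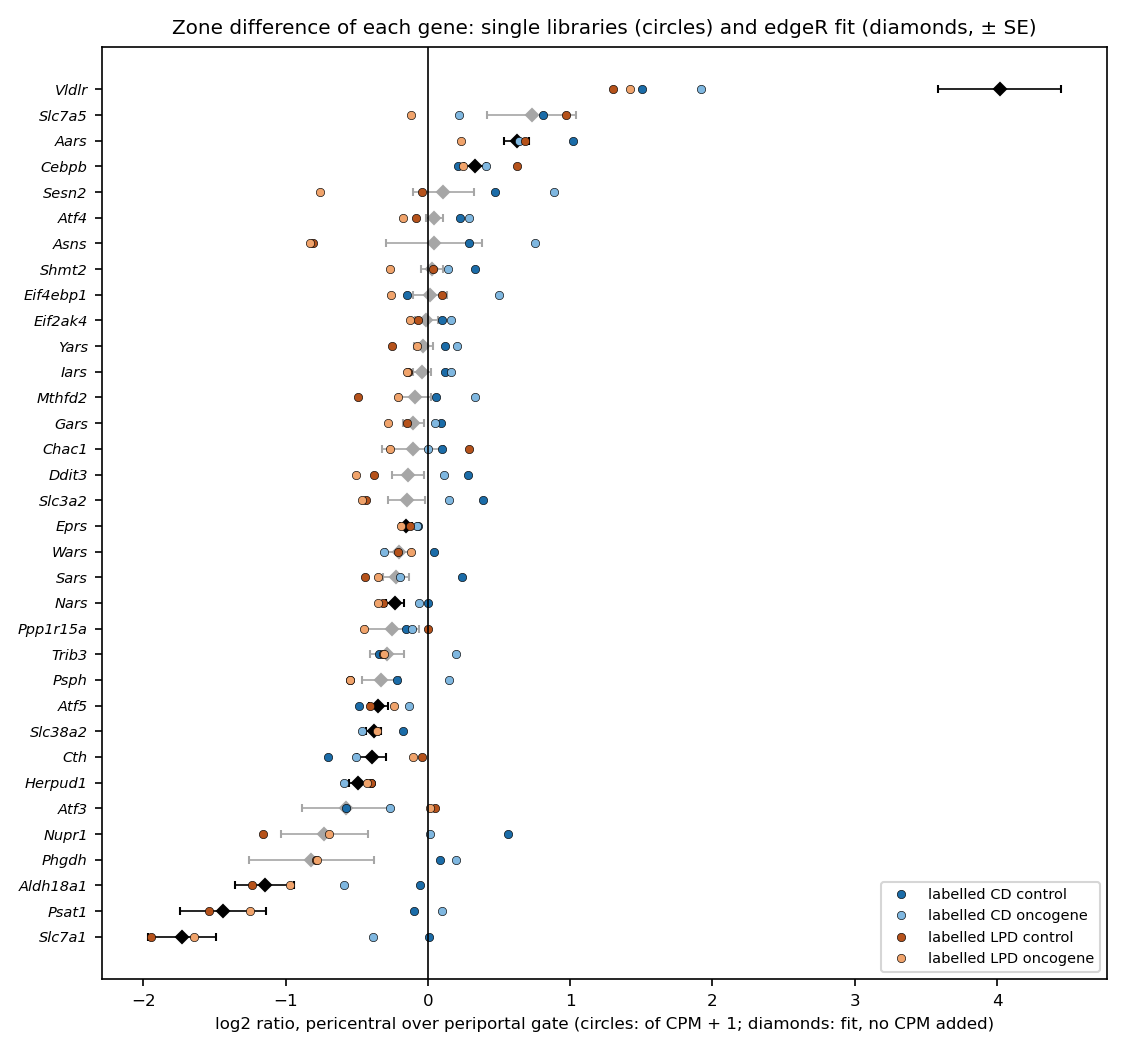
Rows are the 34 members tested, ordered by the edgeR log2 ratio of pericentral over periportal nuclei (diamonds with SE, black where called, grey where not), with circles for single libraries, the log2 ratio of (CPM + 1). The circles of low genes lie nearer to 0 than the fit because of the added CPM, as for Vldlr, fitted at 4.02, and the Asns circles of the diets lie on opposite sides of 0.

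Whether the zone ratio itself differed between the diets was tested with an interaction term, added after the data were seen. Each diet entered with 1 library of either label, and these unlike libraries served as its replicates. Depth and mitochondrial share separated the diets here too. Over all genes 2.52% differed, and 2 of the 34 members did. Asns had more CPM in pericentral nuclei in the CD libraries (0.802 against 0.473 CPM and 5.45 against 2.83 CPM) and fewer in the LPD libraries (1.41 against 3.22 CPM and 3.86 against 7.64 CPM). Its zone ratio differed by -1.89 ± 0.37 (LPD minus CD, log2, edgeR adjusted p = 0.021). For Cth the periportal excess of the CD libraries, 115 against 187 CPM and 374 against 531 CPM, was smaller in the LPD libraries, at 168 against 174 CPM and 143 against 154 CPM, and the ratio differed by 0.61 ± 0.11 (adjusted p = 0.015). In 27 of the 34 members the difference was below 0, against 49.95% of all genes, with a median of -0.26 against 5.0e-04.

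Within each gate, the diets were compared by the same call as above. In pericentral nuclei 14 of the 36 genes were higher in LPD, in midzonal nuclei 21 and in periportal nuclei 20, and 0 were lower in any gate, whereas 7.33%, 9.06% and 9.86% of all genes were higher. The 14 genes called in pericentral nuclei, among them Nupr1, Trib3, Sesn2, Psat1, Slc7a1, Slc38a2 and Iars, were called in the other gates as well. Ddit3 was called in the periportal gates, and Yars in the midzonal and periportal gates.

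The oncogene label was compared with the control label within each diet, with 1 library on either side. In CD, 5 members were higher under the oncogene label and 5 were lower, whereas 5.59% of all genes were higher and 10.7% were lower. The median log2 ratio was -0.11, as over all genes. In LPD, 12 members (33.3%) were higher under the oncogene label and 0 were lower, against 5.56% and 3.75% of all genes. The median there was 0.37, against 0 over all genes, and 31 of the 36 were above 0. The count of 12 fell to 6 with a fold of 2 or a minimum of 5 CPM, and to 7 with 5 CPM added in place of 1. In the LPD libraries the transgenes gave 0 UMIs under the control label and 6 under the oncogene label over all nuclei, and 4 hepatocyte nuclei of the latter held at least 1 of them.

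In CD, the higher members were Cth, Asns, Chac1, Atf5 and Slc38a2. Cth was 3.11 times (3.02 to 3.19) and Asns 6.16 times (4.13 to 9.50) as high under the oncogene label. Chac1 was 2.72 times (1.66 to 4.61), Atf5 1.98 times (1.87 to 2.09) and Slc38a2 1.73 times (1.67 to 1.79) as high. The lower members were Ddit3 at 0.5001 times (0.444 to 0.562), Trib3 at 0.552 times (0.421 to 0.720), Cebpb at 0.553 times (0.528 to 0.579), Atf4 at 0.584 times (0.560 to 0.609) and Aars at 0.629 times (0.598 to 0.662). Exchanged CD labels would turn each of these ratios around. Immediate early genes, which respond within minutes to tissue handling, moved in the same direction as the lower members, with 7 of 11 lower and 1 higher under the CD oncogene label. Egr1 stood at 166, 19.1, 5.65 and 14.996 CPM in the 4 libraries. The part of handling in the lower members was not tested. TMM scaling shifted all genes by 0.15 for this pair and left 3 lower members, without Trib3 and Aars.

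In LPD, Chac1 stood apart, with 201 UMIs under the oncogene label and 24 under the control label, a ratio of 9.09 (5.94 to 14.5). The serine synthesis enzymes were all among the 12, with Phgdh at 5.08 times (3.18 to 8.46), Psat1 at 3.24 times (2.38 to 4.46) and Psph at 1.65 times (1.38 to 1.97). Slc7a1 was 3.06 times (2.52 to 3.73) and Asns 2.76 times (1.93 to 4.01) as high, while Slc7a11 was 16.8 times (4.28 to 145) as high on 31 against 2 UMIs. This interval takes the UMIs of Slc7a11 as independent, while 10 of the 31 came from 1 nucleus. Atf3 (2.24 times), Eif4ebp1 (1.90 times), Nupr1 (1.88 times), Aldh18a1 (1.62 times) and Mthfd2 (1.59 times) completed the 12. Atf4 itself, at 0.896 times (0.828 to 0.969), was not among them, nor was any tRNA synthetase, with ratios from 1.07 (0.988 to 1.15) for Iars to 1.36 (1.21 to 1.54) for Gars. Of the 11 immediate early genes, 5 were higher under the same label, and their part in this result was not tested.

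**Figure D4:**
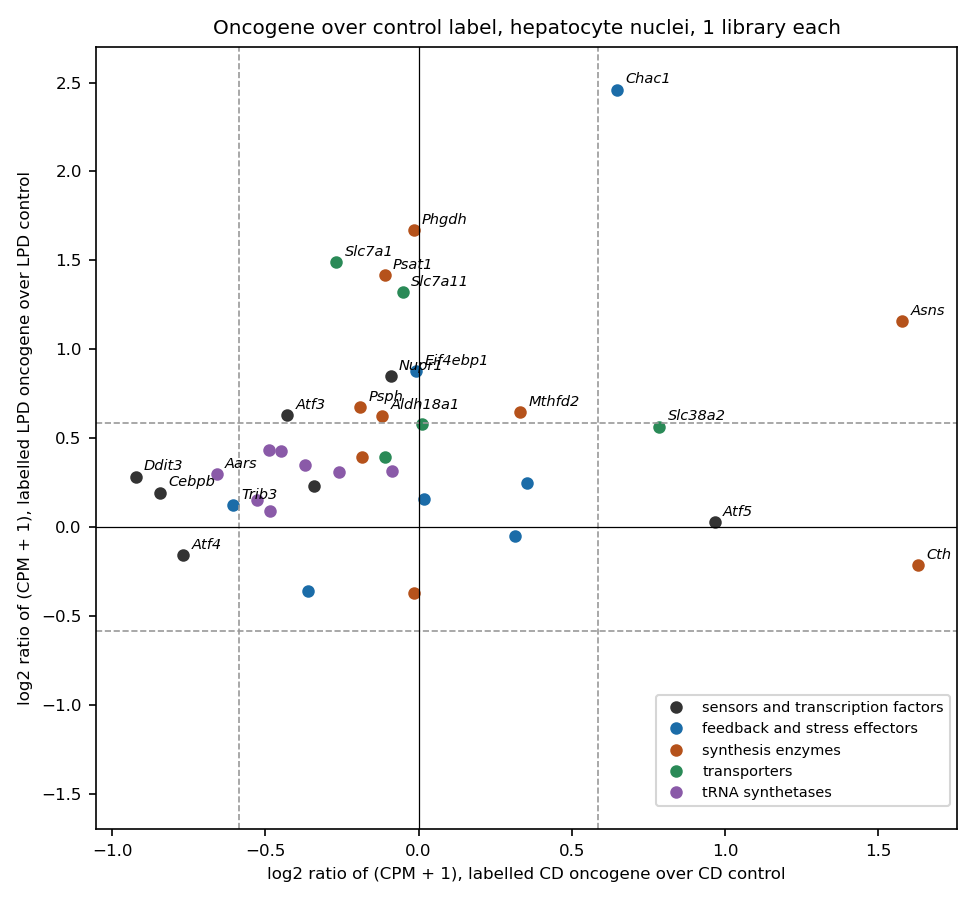
Each point is a gene, placed by its log2 ratio of (CPM + 1) under the oncogene over the control label in CD (horizontal axis) and LPD (vertical axis), coloured by role and named where called in either diet. Dashed lines mark 1.5-fold, with 12 genes above the upper horizontal line and 0 below the lower one, and only Asns and Chac1 past both upper limits. With exchanged CD labels the horizontal axis turns around, and 0 genes would be past both.

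Other genes of the pathway and of related stress responses were counted in the same way, from lists also chosen with earlier results of these data known. The counts are to be read against the 7.53% of all genes higher and the 4.53% lower in LPD. Of 19 other ATF4 targets, 7 were higher in LPD and 0 lower, with a median log2 ratio of 0.52. Fgf21, the fasting hormone of the liver, had the largest change, with 0.670, 0.290, 34.6 and 126 CPM. Slc6a9 (21.5, 9.65, 61.2 and 72.1 CPM) and Cars (24.6, 23.4, 77.5 and 97.8 CPM) came next. Got1, Nfil3 and Cbs were at the other end, with mean log2 ratios of -1.12, -0.65 and -0.08, and each was highest in the library labelled CD oncogene, as Cth was. Of 12 other cytosolic tRNA synthetases 4 were higher and 0 lower (median 0.78), with Cars and Tars counted in both lists. Of 17 mitochondrial tRNA synthetases 2 were higher and 1, Lars2, was lower (median 0.10). For the genes of eIF2 and its kinases, 3 of 14 were higher and 0 lower (median 0.56), among them Eif2ak3, the eIF2 kinase of the ER, at 44.0, 30.3, 76.4 and 113 CPM.

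Genes of the ER stress response outside the 36 were higher in LPD as well. Of 13, 10 were higher in LPD and 0 lower, with a median log2 ratio of 1.20, as in Hyou1 (27.3, 11.8, 77.7 and 115 CPM), a chaperone of the ER. Hspa5, the main ER chaperone, had a mean log2 ratio of 0.52, Xbp1 0.27 and Calr -0.28. These lists share upstream kinases and targets with the 36 genes, and their part in the result was not tested. Across zones, 9 of the 13 ER stress genes and 6 of the 19 other ATF4 targets were periportal, with 0 and 2 pericentral. Immediate early genes had 1 gene higher and 1 lower in LPD (median -0.27), and 8 of 11 were periportal.

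In other cell classes, hepatocyte RNA that is free in the suspension adds UMIs of these genes. A member was therefore read as above that background only where its CPM was at least 1.5 times the hepatocyte level times the highest ratio of 5 hepatocyte markers (Alb, Apob, Ttr, Serpina1a and Apoa1) in that class, in every library with at least 50 nuclei of it. Of 324 pairs of a gene and a class, 10 met this with at least 20 UMIs. With clusters made without library correction 21 pairs met it, 8 of them among the 10, without Slc7a1 in cholangiocytes and Slc3a2 in monocyte or dendritic nuclei. Sensors, transcription factors, effectors and tRNA synthetases had 0 such pairs, which says only that their levels could not be told from free RNA. Classes are clusters of nuclei, so these levels are descriptions. No background was subtracted, so free RNA can also carry the diet difference of hepatocytes into the other classes. Its part in the diet differences given below was not tested.

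Slc7a1 met it in 5 classes, in which its level was also above that of hepatocytes. In stellate nuclei it stood at 20.7, 32.6, 43.0 and 44.5 CPM on 21, 49, 23 and 11 UMIs. B cell nuclei held 26.0, 33.4, 56.6 and 157 CPM, and nuclei of the T and NK or innate lymphoid cluster 18.8, 20.4, 43.3 and 48.6 CPM. In all 3 classes the LPD values were above the CD values, while the counting intervals overlapped for at least 1 pair of libraries. Cholangiocyte nuclei (8.02, 11.04, 64.8 and 121 CPM) and mesothelial nuclei (74.7 and 13.1 CPM in CD, and 117 CPM in the library labelled LPD oncogene, the LPD control having under 50 nuclei) rested on 2 to 21 UMIs per library.

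The chains of the leucine exchanger met the limit in endothelial and myeloid classes. Slc7a5 in sinusoidal endothelial nuclei stood at 5.62, 3.57, 24.0 and 32.4 CPM, on 4, 2, 10 and 25 UMIs. Slc3a2 in Kupffer nuclei stood at 37.7, 38.2, 85.3 and 80.7 CPM on 10, 15, 27 and 72 UMIs. In both pairs the LPD values were above the CD values, with intervals that overlapped for at least 1 pair of libraries. Hepatocytes had the same direction, and the part of their free RNA in this was not tested. Slc3a2 also met it in monocyte or dendritic nuclei (19.4, 19.5, 48.3 and 48.5 CPM) and in vascular endothelial nuclei (34.3 CPM in the library labelled CD oncogene, and 228 and 116 CPM in LPD). Aldh18a1 in Kupffer nuclei stood at 15.1, 10.2, 28.4 and 21.3 CPM on 4 to 19 UMIs, and its intervals overlapped between the diets.

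**Figure D5:**
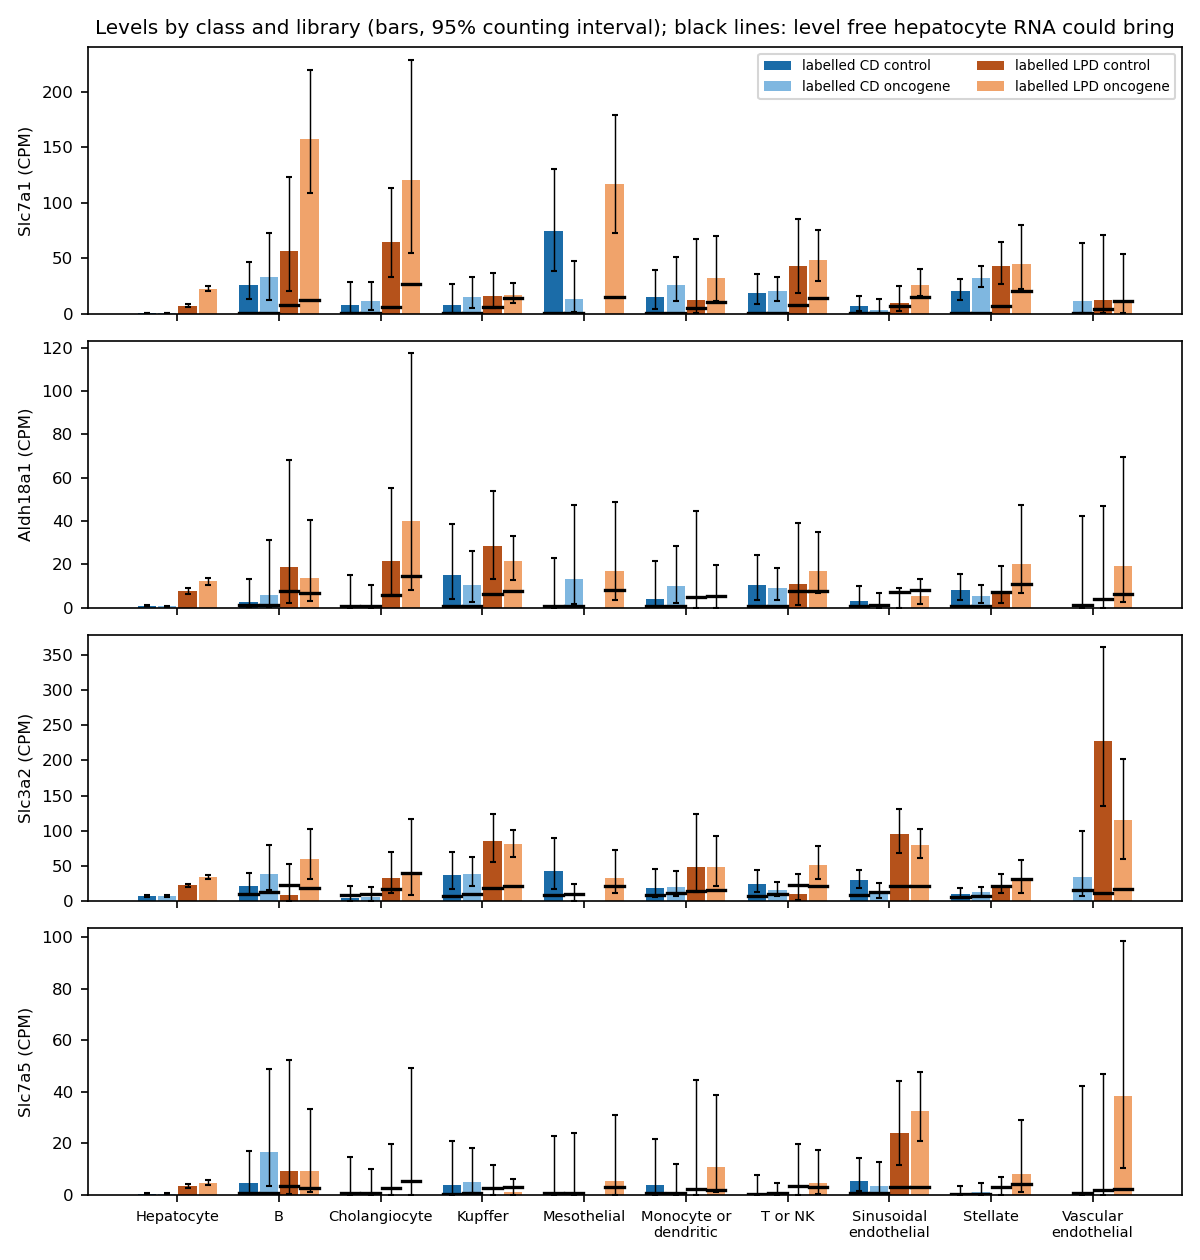
Bars give the level in CPM of the 4 genes that stood above the free RNA background in some class, for hepatocytes and 9 other classes and for each library by its label, with exact 95% counting intervals, and black lines mark the level that free hepatocyte RNA could bring. Slc7a1 bars stand above hepatocytes in B, cholangiocyte, mesothelial, T or NK and stellate nuclei, up to 157 CPM, and classes with under 50 nuclei in a library have no bar.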

How the data were processed

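Nuclei of frozen liver were profiled with Chromium 3' chemistry, 1 library per group. The authors deposited UMI counts per gene and barcode, not normalized, made, per the file headers, by version 9.0.1 of Cell Ranger. As reference the methods name mm10 with human c-MET and CTNNB1 added, and Seurat 5 is named in the submitters' processing notes. Whether intronic reads were counted is not given in the sources used here. Nuclei with 200 to 7000 genes and at most 21% mitochondrial UMIs were kept, as in the study, leaving 10397, 12552, 9825 and 10103 of 44010 barcodes.

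Counts were log-normalized, and 5000 variable genes, 23 library-corrected (Harmony, written in numpy) components and Louvain clustering at resolution 0.4 gave clusters, named from marker lists. The naming rule was changed after the data were seen, because free hepatocyte RNA hid marker contrasts: markers had to be raised 3-fold with 5 CPM added, in at least 3 and 50% of a list. Clusters that also held at least 75% of the hepatocyte level of Apob and Hnf4a were removed as doublets, except a proliferating cluster of 144 nuclei (87.4%), which was set apart by its leading list and entered no level given here, and no doublet caller was run. A haemoglobin-led cluster of 4973 nuclei stayed unnamed. UMIs were summed per library and class, scaled to 1000000 mouse UMIs.

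With 1 library per group there was no test of levels between libraries, and folds were taken with 1 CPM added, which understates low genes. The zone fit used edgeR 4.0.16 (R 4.3.3) on 12 sums with the library as a block, TMM factors and filterByExpr, with a threshold of 0.05. The block is the library itself, whose 3 gates come from the same nuclei suspension. Each SE of the zone and interaction fits is the absolute log2 ratio divided by the square root of the quasi-likelihood F statistic. It is not a spread over the single libraries. On simulated counts of 13171 genes the zone fit recovered 85.9% of changes of 1 log2 unit and 69% of those of 0.5. False calls made 0.177%. The interaction fit, on 13176 genes, recovered 58% and 8.08%, with 0.0231% false. Simulated gates were drawn independently, with the same change in all libraries, or in both LPD libraries for the interaction. These shares therefore leave out the sharing of nuclei by the gates of a library, and zone ratios that differ systematically between libraries. The symbol Ddit3 names 2 features, and the one with UMIs (2199 in hepatocytes) was used, the other having 0. The interaction fit and the minimum of 20 UMIs for other classes were chosen after the data were seen. Genes were named by a rule: all members by role, and of each other list the 3 largest and 3 smallest changes, of which some are given. Members and lists were chosen with earlier results of these data known. A floor of 3 counts stands for 0.0580 to 0.170 CPM in hepatocytes.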

Additional observations from a re-analysis of the deposited data

Results flagged for a closer look

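Atf3, Ddit3, Cebpb and Cth moved in opposite directions under the oncogene label in the 2 diets, with counting intervals that left out no change in either and a difference of at least 1 on the log2 scale between the diets, after 1 CPM was added. Eif2ak4, Aars, Gars, Nars, Yars and Eprs also had opposite directions with such intervals, but smaller differences. The log2 ratio under that label in LPD minus that in CD was 1.06 for Atf3 (146 UMIs in all), 1.21 for Ddit3 and 1.04 for Cebpb, which were lower in CD and higher in LPD. For Cth the difference was -1.85, with a higher level in CD and a lower one in LPD. These differences were not tested, as each label has 1 library per diet, and the CD directions turn around if the CD labels were exchanged. Immediate early genes showed the same opposition as the first 3 genes (7 of 11 lower in CD, 5 of 11 higher in LPD), and their part was not tested.

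The zone ratio of 2 genes differed between the diets by edgeR's interaction test with Benjamini-Hochberg adjustment, with 1 library of either label for each diet. Asns had a difference of -1.89 (LPD minus CD, log2, adjusted p = 0.021) and Cth one of 0.61 (adjusted p = 0.015). Asns rested on 28 hepatocyte UMIs in the library labelled CD control and 44 in the library labelled LPD control.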

How the results depend on the processing

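No call made above turned direction under the alternatives run. Pycr1, not called above, was called lower under the CD oncogene label with nuclei thinned to 1000 UMIs. It was called higher under that label with nuclei holding other markers removed. The number of genes higher in LPD stayed between 16 and 21 of 36 under the alternatives to filters, scaling, clusters, gates and pseudocount, fell to 13 with a fold of 2, and ran from 20 to 28 when 1 library was left out. The number lower in LPD ran from 0 to 1 over the same omissions. It was 1 without the library labelled CD control (Cth) and 1 without the library labelled CD oncogene (Atf4). With 1 library left out fewer pairs had to pass the limit, so the counts of higher and lower genes could only stay or rise. Under the CD oncogene label, the 5 higher became 2 with a fold of 2, 3 with a minimum of 5 CPM and 9 with nuclei holding other markers removed, and the 5 lower became 0, 5 and 8, and 3 with TMM factors. Under the LPD oncogene label the 12 higher became 6 with a fold of 2, 6 with a minimum of 5 CPM and 7 with a pseudocount of 5 CPM. Without the replicate block, that is with no library term, 1 pericentral and 0 periportal members were called in place of 3 and 9. When 1 library was left out, 3 to 4 pericentral and 6 to 9 periportal members were called. Except where the construction of an alternative shows it (fewer nuclei, genes or pairs, or a larger fold), the cause was not tested. In other classes 21 pairs stood above free RNA with clusters made without library correction, 8 of them among the 10. Of the zone ratios of single genes, 445 kept their side of the threshold, 23 lost and 5 gained a call, and of the diet ratios 368 stayed within counting error and 91 moved. Depth limited the precision of low genes, since the LPD libraries held 17604500 to 19105943 hepatocyte UMIs against 44798766 to 51724324 in CD. No alternative gives a replicate of a group.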

Other observations

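Hepatocyte nuclei that carried a transgene UMI were set beside the others of the same library under the label CD control, where 79 nuclei had one (median 7594 UMIs) and 6573 had none (median 5649 UMIs). Aars stood at 157 CPM (130 to 187) in the 79 nuclei and 78.6 CPM (76.0 to 81.3) in the others. Atf5 stood at 15.03 CPM (7.77 to 26.3) against 40.2 CPM (38.3 to 42.1), Cth at 76.4 CPM (58.5 to 98.2) against 147 CPM (143 to 150) and Herpud1 at 92.7 CPM (72.8 to 116) against 140 CPM (137 to 144). Sesn2 stood at 11.3 CPM (5.16 to 21.4) against 4.30 CPM (3.70 to 4.95), on 9 UMIs. Atf4 itself stood at 130 CPM (106 to 158) against 126 CPM (122 to 129), and Slc38a2 at 127 CPM (103 to 154) against 124 CPM (120 to 127). Aars was pericentral and Atf5, Cth and Herpud1 periportal in the zone fit, and zone was not held equal here. All nuclei come from 1 library, so these are descriptions with no test.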
